A study of Mus musculus with 12 samples.

Results

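The genes described here move glutamate and glutamine across the cell membrane or turn one into the other. They are the glutamate carriers Slc1a1, Slc1a2 and Slc1a3, the neutral amino acid exchangers Slc1a4 and Slc1a5, the glutamine carrier Slc38a1, the cystine-glutamate exchanger Slc7a11 and the enzymes Glul and Glud1. They were chosen by name, with earlier results of these data known. All 9 were measured, and they make up 9 of the 19938 genes tested. In the brain, astrocytes clear glutamate released at synapses through sodium-driven carriers and convert it to glutamine with glutamine synthetase, the product of Glul. Dividing tumor cells use glutamine as a source of nitrogen and carbon, and glioma cells are known to release glutamate through the exchanger encoded by Slc7a11, which brings in cystine for the synthesis of glutathione.

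Arrays profiled RNA of tumor cells carrying ZsGreen, sorted from the brains of 12 FVB mice, 6 injected intracranially with pEGFR-Hi and 6 with pEGFR-Lo mouse tumor progenitor cells (2 µl at 200000 cells per µl), with 1 array per mouse. Both lines began as neural progenitor cells of Ink4a/Arf null mice that were transduced with the human EGFRvIII, a receptor that signals without ligand. They were passaged through mice as tumors and differ in how strongly EGFRvIII is phosphorylated, which is high in pEGFR-Hi and low in pEGFR-Lo. Each group is 1 tumor line, so spread among mice is not spread among lines, and brains were taken near the median survival of each group, so line and time since injection cannot be told apart. Values are the log2 RMA values (background-corrected, quantile-normalized, 1 value per probe set) that the authors deposited, and a log2 difference is pEGFR-Hi minus pEGFR-Lo. Calls needed 2 things, an adjusted p from limma below 0.01 (Benjamini-Hochberg over all genes) and a change of 2-fold or more. The background level was 4.10, under which 95% of 1027 olfactory receptor genes had their mean. In sorted bulk samples, fewer cells of a type and less RNA per cell cannot be told apart.

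Over all genes, arrays correlated at 0.991 to 0.994 within pEGFR-Hi, at 0.985 to 0.993 within pEGFR-Lo and at 0.944 to 0.959 between the groups. All 7 neural progenitor markers were above background. The mean over the list was 9.37 to 9.66 in pEGFR-Hi and 9.61 to 9.84 in pEGFR-Lo mice. Of the 7, 1 was called lower in pEGFR-Hi (5.06% of all genes), the radial glia fatty acid carrier Fabp7, by 2.58-fold. The probe set of Cdkn2a, the gene of Ink4a and Arf, read 5.26 ± 0.13 in pEGFR-Hi and 5.36 ± 0.14 in pEGFR-Lo (SD, n = 6 mice each). The part of the gene that its probes cover is not known here, and the value is no check of the deletion. The pEGFR-Lo replicates 3 and 6 stand apart by the mean of 10 interferon-stimulated genes, at 4.72 and 4.71 against 5.87 to 6.49 in the other pEGFR-Lo mice, with 7.63 to 8.98 in pEGFR-Hi mice.

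The 3 carriers of glutamate uptake were lower in pEGFR-Hi, and the glutamine exchanger Slc1a5 was higher. Of the 9 genes, 4 were called lower (Slc1a1, Slc1a2, Slc1a3 and Slc38a1), against 5.06% of all genes tested. Slc1a5 was the 1 gene called higher, against 3.99% of all genes. Of all genes 9.05% were called in either direction. The median difference of the 9 genes was -0.68 on the log2 scale, beside 0.01 over all genes. In 6 genes every pEGFR-Hi mouse lay below every pEGFR-Lo mouse (11.1% of all genes), in Slc1a5 every pEGFR-Hi mouse lay above (12.2% of all genes, 23.3% for both directions), and in Slc7a11 and Glud1 the groups overlapped. Without the fold limit 8 of the 9 genes had an adjusted p below 0.01 by limma, against 27.6% of all genes.

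**Figure D1:**
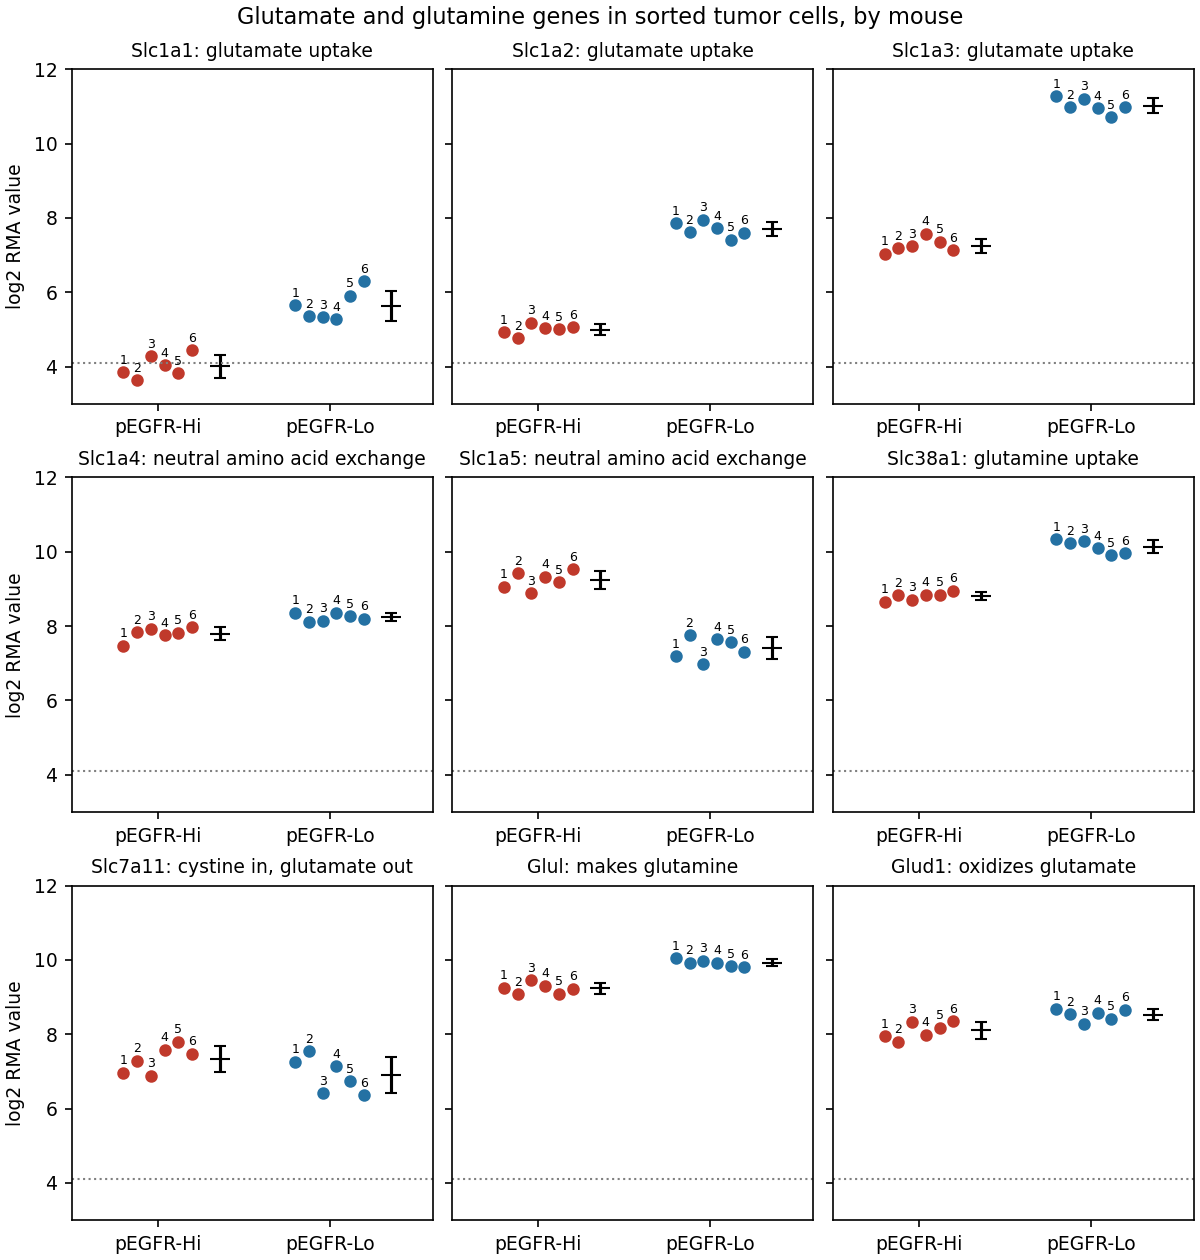
Log2 RMA value (y axis) of each of the 9 genes, by group (x axis, 6 mice each). Every point is a mouse, numbered by replicate, the bar beside each group is the mean and SD, and the dotted line is the background level of 4.10. Slc1a3 reads 7.04 to 7.58 in pEGFR-Hi and 10.72 to 11.28 in pEGFR-Lo mice, and Slc1a5 reads 8.89 to 9.54 in pEGFR-Hi and 6.97 to 7.76 in pEGFR-Lo mice.

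Among the carriers of glutamate, Slc1a3 had the largest difference of the 9 genes. It encodes GLAST, a sodium-driven glutamate carrier of astrocytes and radial glia. Its log2 value had a lowest, median and highest of 7.04, 7.21 and 7.58 in pEGFR-Hi mice, against 10.72, 10.98 and 11.28 in pEGFR-Lo mice. The groups were thus 3.14 apart at their nearest mice, which is larger than the spread within either (SD 0.19 in pEGFR-Hi and 0.20 in pEGFR-Lo). Slc1a3 was 13.6-fold lower in pEGFR-Hi (log2 difference -3.77, 95% confidence interval -4.00 to -3.54, adjusted p = 1.33e-12 from limma). By size it was place 48 among the genes lower in pEGFR-Hi, of 19938 genes tested.

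Slc1a2, which encodes the main glutamate carrier of mature astrocytes, read 4.76, 5.01 and 5.18 (lowest, median and highest) in pEGFR-Hi mice, against 7.42, 7.67 and 7.95 in pEGFR-Lo mice. All 6 pEGFR-Hi mice were above background but by little, and the nearest mice of the 2 groups were 2.24 apart. Slc1a2 was 6.51-fold lower in pEGFR-Hi (log2 difference -2.70 ± 0.10 SE, adjusted p = 9.49e-12 from limma). Slc1a1, a glutamate carrier best known from neurons that also takes up cysteine, read 3.63, 3.95 and 4.45 in pEGFR-Hi mice, against 5.28, 5.50 and 6.30 in pEGFR-Lo mice. Only replicates 3 and 6 of pEGFR-Hi were above background for Slc1a1, so its fold has a bound. With pEGFR-Hi arrays set to no less than the background level, Slc1a1 was at least 2.73-fold lower in pEGFR-Hi (fitted log2 difference -1.63, adjusted p = 1.97e-06 from limma).

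The 250 bases before a RefSeq start of Slc1a3 and of Slc1a2 are shown because these carriers had the largest differences. Any other starts of these genes were not examined. Both windows hold 44.8% G and C, beside a median of 52.4% over the 32851 promoter windows of the reference. The other windows of the 9 genes in the reference hold 43.2% (Slc7a11, which was not called), 64.8% (Slc1a4 and Glul), 70.4% (Slc1a1, called lower) and 82% (Glud1). On GRCm38.p6 the Slc1a3 window is chr15:8710808-8711057 on the minus strand and the Slc1a2 window is chr2:102706188-102706437 on the plus strand. They are written 5′ to 3′, with the start site just after the last base. Neither holds a match to the ATF4 or NRF2 motifs described with Slc7a11, so no base is in capitals.
Slc1a3: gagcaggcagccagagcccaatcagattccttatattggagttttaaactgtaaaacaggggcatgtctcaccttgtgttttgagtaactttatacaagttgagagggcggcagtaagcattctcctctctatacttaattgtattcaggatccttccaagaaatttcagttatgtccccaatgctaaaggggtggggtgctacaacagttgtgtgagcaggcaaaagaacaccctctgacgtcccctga
Slc1a2: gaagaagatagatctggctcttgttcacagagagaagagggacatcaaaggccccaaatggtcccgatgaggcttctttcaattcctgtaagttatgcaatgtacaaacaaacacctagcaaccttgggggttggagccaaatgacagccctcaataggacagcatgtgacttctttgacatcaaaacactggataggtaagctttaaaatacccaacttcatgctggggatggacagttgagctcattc

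Slc1a2, Slc1a3 and Glul are best known from astrocytes. Of 10 astrocyte markers, 2 were called lower in pEGFR-Hi (5.06% of all genes) and 1 was called higher (3.99% of all genes), and their median difference was 0.00 on the log2 scale, beside 0.01 over all genes. S100b, a calcium-binding protein of astrocytes and of oligodendrocyte precursors, averaged 4.95 ± 0.50 in pEGFR-Hi and 9.27 ± 0.54 in pEGFR-Lo (n = 6 mice each, SD; adjusted p = 1.37e-09 from limma). Gja1, a gap junction protein, averaged 4.32 ± 0.76 in pEGFR-Hi and 5.94 ± 0.95 in pEGFR-Lo (adjusted p = 0.00465 from limma), with overlapping groups, and it was not called when any of 8 single arrays was left out (adjusted p up to 0.0131). Gfap, the intermediate filament of astrocytes, was 2.69-fold higher in pEGFR-Hi, at 9.81 ± 0.27 in pEGFR-Hi against 8.38 ± 0.59 in pEGFR-Lo (adjusted p = 8.61e-05 from limma). The mean over the list was 5.87 to 6.16 in pEGFR-Hi and 6.31 to 6.79 in pEGFR-Lo mice. The astrocyte connexin Gjb6 was below background in both groups (3.31 in pEGFR-Hi against 3.30 in pEGFR-Lo). The water channel Aqp4 averaged 4.88 in pEGFR-Hi and 4.89 in pEGFR-Lo.

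Of 8 mature neuron markers and 5 oligodendrocyte markers none was called by limma, against 5.06% of all genes called lower and 3.99% higher. With the fold limit dropped and an adjusted p below 0.05 taken, 1 of each was lower in pEGFR-Hi, against 16.6% of all genes. The mean of the neuron list was 4.04 to 4.16 in pEGFR-Hi and 4.25 to 4.47 in pEGFR-Lo mice, and that of the oligodendrocyte list 4.12 to 4.24 in pEGFR-Hi and 4.17 to 4.68 in pEGFR-Lo mice. Of 8 microglia and macrophage markers 1 was called lower (5.06% of all genes). This was the purinergic receptor P2ry12, at 4.69 ± 0.46 in pEGFR-Hi against 6.43 ± 0.41 in pEGFR-Lo. In all, 4 of the 8 were above background. Besides P2ry12 these were Cx3cr1 (5.28 in pEGFR-Hi, 5.13 in pEGFR-Lo), Tmem119 (4.56 in pEGFR-Hi, 4.91 in pEGFR-Lo) and C1qa (4.20 in pEGFR-Hi, 4.34 in pEGFR-Lo), none of them called, while Csf1r, Aif1, Ptprc and Itgam had group means below background. The mean over that list was below the background level in all 6 pEGFR-Hi mice, with a lowest of 3.79, against 3.95 to 4.38 in pEGFR-Lo mice. Of 6 endothelium markers none was called, against 5.06% of all genes called lower and 3.99% higher, and their median difference was -0.02. Flt1 among them averaged 5.04 ± 0.31 in pEGFR-Hi and 4.21 ± 0.16 in pEGFR-Lo (1.78-fold, adjusted p = 8.84e-05 from limma), with no overlap. The mean over the endothelium list was 3.82 to 4.19 in pEGFR-Hi and 3.92 to 4.07 in pEGFR-Lo mice. The part of such markers in the results on the carriers was not tested.

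**Figure D2:**
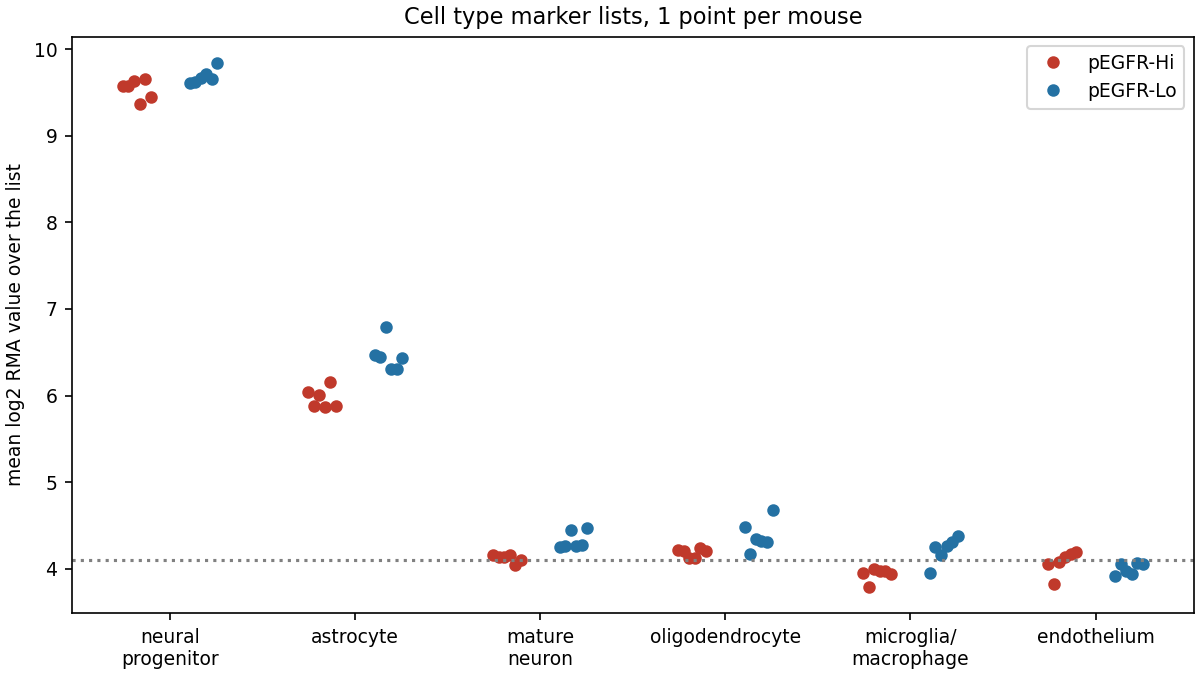
Mean log2 RMA value over each list of cell type markers (y axis) for 6 lists (x axis), with 1 point per mouse, pEGFR-Hi in red and pEGFR-Lo in blue, and the background level of 4.10 as a dotted line. The astrocyte list lies at 5.87 to 6.16 in pEGFR-Hi and 6.31 to 6.79 in pEGFR-Lo mice, and the neuron, oligodendrocyte, microglia and endothelium lists lie near background.

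Of the neutral amino acid exchangers of the same family, Slc1a5 was called higher and Slc1a4 was not called. Slc1a5, which exchanges neutral amino acids and is a main route of glutamine into dividing cells, read 8.89, 9.26 and 9.54 (lowest, median and highest) in pEGFR-Hi mice, against 6.97, 7.44 and 7.76 in pEGFR-Lo mice. The lowest pEGFR-Hi mouse was 1.13 above the highest pEGFR-Lo mouse. Slc1a5 was 3.55-fold higher in pEGFR-Hi (log2 difference 1.83, 95% confidence interval 1.53 to 2.13, adjusted p = 3.56e-08 from limma), place 158 among genes higher in pEGFR-Hi. Its paralog Slc1a4, which exchanges serine, alanine and other small amino acids, read 7.47, 7.83 and 7.98 in pEGFR-Hi mice, against 8.12, 8.23 and 8.36 in pEGFR-Lo mice. Slc1a4 was not called, since the difference of -0.44 is 1.36-fold, though it was larger than the spread among mice (adjusted p = 9.35e-04 from limma) and the groups did not overlap.

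Slc38a1 encodes a sodium-coupled carrier that takes up glutamine and other neutral amino acids. It read 8.66, 8.84 and 8.95 (lowest, median and highest) in pEGFR-Hi mice, against 9.90, 10.17 and 10.34 in pEGFR-Lo mice, with no overlap. The brighter of its 2 probe sets was 2.51-fold lower in pEGFR-Hi (log2 difference -1.33, 95% confidence interval -1.52 to -1.13, adjusted p = 9.42e-09 from limma). The other probe set averaged 6.95 ± 0.26 in pEGFR-Hi and 8.63 ± 0.18 in pEGFR-Lo, a 3.21-fold difference in the same direction. RNA of 1 glutamine carrier, Slc1a5, was thus higher in pEGFR-Hi while that of Slc38a1 was lower.

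Among measured protein-coding genes in the RefSeq annotation of GRCm38.p6, Slc38a1 and Slc38a2 are neighbours on chromosome 15, and both were called lower. Slc38a4, the next gene, was below background in both groups, at 3.30 in pEGFR-Hi and 3.18 in pEGFR-Lo. Of the other measured genes around them, Ano6 (difference -1.39) and Amigo2 (-2.81) were called lower too. Arid2 (-0.37) and Scaf11 (-0.13) were not called. Slc1a3 lies elsewhere on chromosome 15. Of the measured genes beside it, Nipbl differed by -0.18 and was not called. Ranbp3l was called lower, and averaged 2.92 in pEGFR-Hi, below background, and 5.11 in pEGFR-Lo. On chromosome 15 as a whole, 73 of 748 genes (9.76%) were called lower and 16 (2.14%) higher, beside 5.08% and 4% over all genes placed on a chromosome. The median difference of its genes above background was -0.27, beside 0.03 over all chromosomes. The part of this in the values of Slc1a3 and Slc38a1 was not tested.

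Slc7a11 encodes xCT, the light chain of the exchanger that exports glutamate as it imports cystine. It read 6.89, 7.39 and 7.80 (lowest, median and highest) in pEGFR-Hi mice, against 6.37, 6.94 and 7.55 in pEGFR-Lo mice, and the groups overlapped. Its difference of 0.42 (95% confidence interval -0.02 to 0.86) was not called (adjusted p = 0.132 from limma), and the interval does not reach 2-fold in either direction. Among the pEGFR-Lo mice, replicates 3 and 6, which stand apart in interferon-stimulated genes, had the lowest values of Slc7a11, at 6.41 and 6.37. Without these 2 mice the difference was 0.16 (adjusted p = 0.588 from limma). Leaving out the lowest pEGFR-Lo values had to shrink it, and the part of interferon-stimulated genes in these values was not tested. The heavy chain of the cystine-glutamate exchanger, Slc3a2, averaged 10.80 ± 0.23 in pEGFR-Hi against 10.51 ± 0.13 in pEGFR-Lo. It was not called either (difference 0.29, adjusted p = 0.0461 from limma).

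The window before Slc7a11 is shown because it was the only one of the 7 member promoters in the reference that held a motif searched for. The reference held no window for Slc1a5 or Slc38a1, so these were not searched. The motif of ATF4, the transcription factor of the amino acid response, was written TGATGNAA, and that of NRF2, the factor of the antioxidant response, TGACNNNGC, with N for any base, and both strands were searched. The ATF4 motif had 2 matches before Slc7a11, on opposite strands, at 66 to 59 and at 47 to 40 bases before the start. Of all 32851 windows, 3.45% held the ATF4 motif, 10.2% held the NRF2 motif, and 6 windows (0.0183%) held the ATF4 motif on both strands. The window is chr3:50443614-50443863 on the minus strand of GRCm38.p6, written 5′ to 3′ with the ATF4 matches in capitals. A match is a description of the letters and not of binding in these cells.
Slc7a11: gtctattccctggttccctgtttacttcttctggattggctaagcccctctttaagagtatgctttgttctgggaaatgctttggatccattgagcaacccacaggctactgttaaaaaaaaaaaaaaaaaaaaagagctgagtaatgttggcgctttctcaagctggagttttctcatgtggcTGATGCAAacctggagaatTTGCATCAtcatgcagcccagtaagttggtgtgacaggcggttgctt

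The enzymes Glul and Glud1 differed by less than 2-fold. Glul, which makes glutamine from glutamate and ammonia, read 9.08, 9.24 and 9.46 (lowest, median and highest) in pEGFR-Hi mice, against 9.80, 9.93 and 10.05 in pEGFR-Lo mice. No pEGFR-Hi mouse reached the pEGFR-Lo mice. The difference of -0.68 (1.61-fold, adjusted p = 4.95e-06 from limma) was not called, though larger than the SD among mice (0.14 in pEGFR-Hi and 0.09 in pEGFR-Lo). A second probe set of Glul gave -0.70. Glud1, the mitochondrial enzyme that oxidizes glutamate to a citric acid cycle intermediate, read 7.80, 8.08 and 8.36 in pEGFR-Hi mice, against 8.29, 8.56 and 8.69 in pEGFR-Lo mice. The groups overlapped, since pEGFR-Hi replicates 3 and 6 (8.34 and 8.36) lay above pEGFR-Lo replicate 3 (8.29), and the difference of -0.43 was not called (1.35-fold, adjusted p = 0.00493 from limma).

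**Figure D3:**
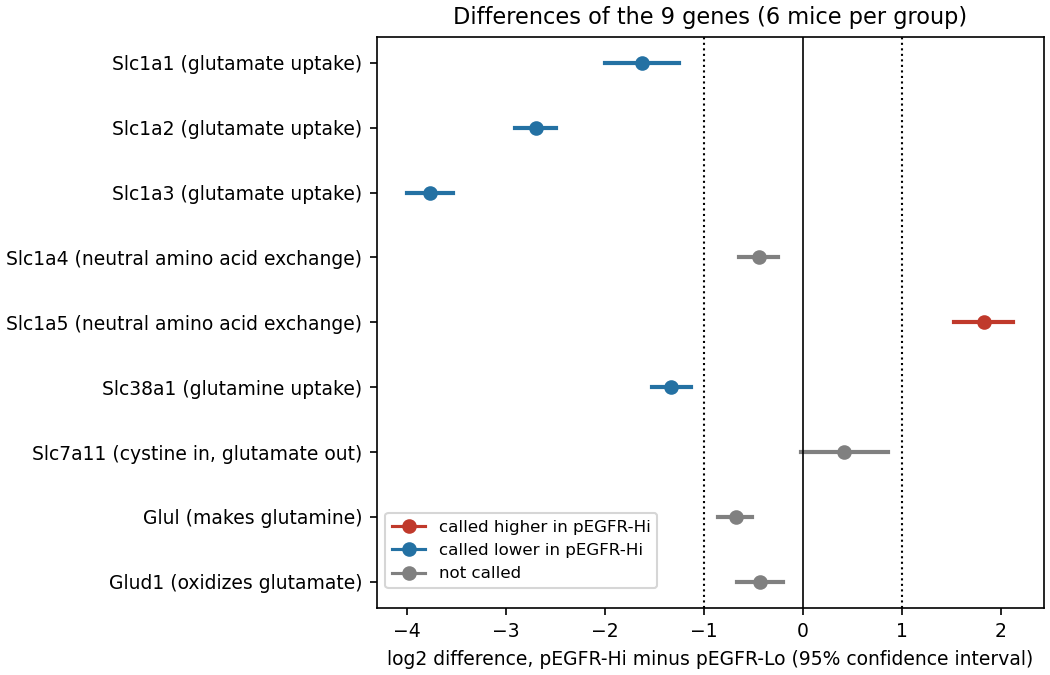
Difference in log2 value, pEGFR-Hi minus pEGFR-Lo (x axis, 6 mice each), of each of the 9 genes (y axis). Points are the fitted differences, lines their 95% confidence intervals, dotted lines mark 2-fold, and color shows the call. Slc1a3 lies at -3.77, Slc1a5 at 1.83 is the 1 gene called higher, and 4 genes lie between the dotted lines.

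Of 27 further carriers of glutamate and glutamine measured, 15 of them above background, 3 were called lower in pEGFR-Hi and 0 higher by limma, against 5.06% and 3.99% of all genes. SAM gave the same counts, with 4.02% of all genes called higher. With the fold limit dropped and an adjusted p below 0.05 taken, 9 were lower and 3 higher, against 16.6% of all genes lower and 19.4% higher. The median difference of the 27 was -0.03, beside 0.01 over all genes. Slc38a3, a carrier that moves glutamine in and out of astrocytes, read 7.44, 7.67 and 8.05 (lowest, median and highest) in pEGFR-Hi mice, against 10.46, 10.67 and 10.69 in pEGFR-Lo mice. It was 7.64-fold lower in pEGFR-Hi (difference -2.93, adjusted p = 1.09e-11 from limma), a wide gap between groups that each spread little. Slc38a2, a glutamine carrier that cells induce when amino acids run short, was 3-fold lower (10.29 ± 0.14 in pEGFR-Hi and 11.87 ± 0.26 in pEGFR-Lo, SD, n = 6 mice each). Slc25a18, a carrier of glutamate into mitochondria, was 4.61-fold lower (6.22 ± 0.39 in pEGFR-Hi and 8.42 ± 0.22 in pEGFR-Lo). The vesicular glutamate carriers Slc17a6, Slc17a7 and Slc17a8 and the carriers Slc1a6 and Slc1a7 had group means below background.

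Of 20 further enzymes of glutamate and glutamine measured, 1 was called higher and 1 lower in pEGFR-Hi, which is near the shares over all genes (3.99% higher and 5.06% lower). Their median difference was -0.07, beside 0.01 over all genes. Gpt2, the mitochondrial alanine aminotransferase, which passes the amino group of glutamate to pyruvate, was 2.45-fold higher (adjusted p = 2.33e-08 from limma), with 9.36 ± 0.12 in pEGFR-Hi against 8.07 ± 0.19 in pEGFR-Lo (SD over 6 mice each). Abat, which breaks down the transmitter GABA, was 2.85-fold lower (6.81 ± 0.11 in pEGFR-Hi and 8.32 ± 0.07 in pEGFR-Lo, adjusted p = 2.61e-10 from limma). Neither gene had overlapping groups.

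Of 11 amidotransferases, which take nitrogen from the side chain of glutamine, 0 were called higher by limma and 1 was called lower, near the shares over all genes (3.99% higher and 5.06% lower). Under the looser limit 6 were higher and 3 lower, against 19.4% and 16.6% of all genes, and their median difference was 0.25. Gfpt2, which starts hexosamine synthesis, was just past the limit at 2.01-fold lower (6.01 ± 0.23 in pEGFR-Hi against 7.01 ± 0.21 in pEGFR-Lo), and it was not called when arrays were centred on their medians or when any of 4 single arrays was left out. Ppat, the first enzyme of purine synthesis, differed by 0.73 (1.66-fold, adjusted p = 9.84e-06 from limma) and Asns, asparagine synthetase, by 0.21 (adjusted p = 0.371 from limma), and neither was called. Of 15 genes of cystine use and glutathione, Slc7a11 among them, 1, Anpep, was called higher and none was called lower by limma, against 3.99% and 5.06% of all genes. Under the looser limit 5 were higher and 2 lower, against 19.4% and 16.6% of all genes, and their median difference was 0.15. Anpep, an aminopeptidase of the cell surface that takes part in glutathione breakdown, averaged 5.35 ± 0.44 in pEGFR-Hi, while all pEGFR-Lo mice were below background, so it was at least 2.38-fold higher.

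**Figure D4:**
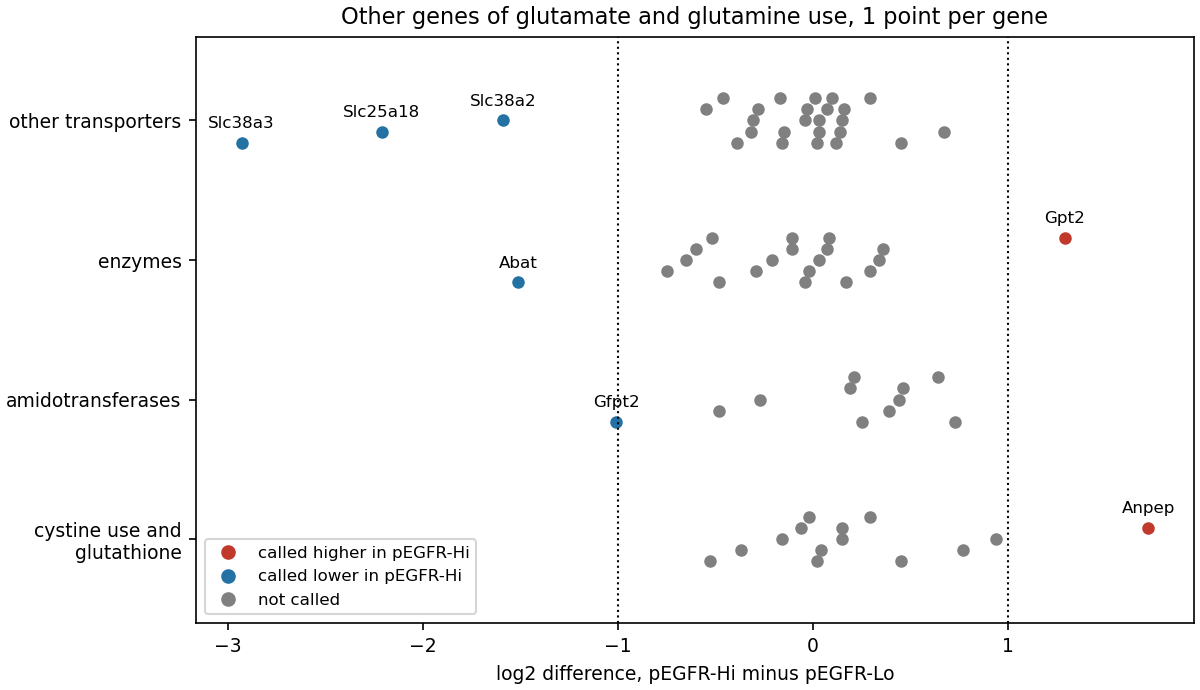
Difference in log2 value, pEGFR-Hi minus pEGFR-Lo (x axis, 6 mice each), of the other genes of 4 lists (y axis), with 1 point per gene, spread vertically for legibility. Color shows the call, called genes are named, and dotted lines mark 2-fold. Slc38a3 at -2.93, Slc25a18 at -2.21 and Slc38a2 at -1.59 are the called carriers, all lower in pEGFR-Hi.

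For each called gene of the 9, the genes above background with the most similar log2 values over the 12 arrays were looked up among 13518 others. They were Tspan6 and Camk1g for Slc1a3 (Pearson r = 0.997 for both), Gabrg1 and Cpe for Slc1a2 (0.996 for both) and Nynrin and Smpd1 for Slc1a1 (0.981 and 0.975). For Slc38a1 they were Ank2 and Calcrl (0.995 and 0.994), and for Slc1a5 Etl4 and Nt5c3b (0.987 and 0.986). These values describe 12 arrays that share the difference between the groups, and no test was made of them.

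Genes of the response to dissociation and of the immediate-early response also differed between the groups, with 9 of 21 called higher in pEGFR-Hi and 1 lower, against 3.99% and 5.06% of all genes. The mean over that list was 8.99 to 9.32 in pEGFR-Hi and 8.15 to 8.60 in pEGFR-Lo mice, and its part in the values of the 9 genes was not tested.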

How the data were processed

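The authors hybridized RNA of ZsGreen-sorted tumor cells to Affymetrix Mouse Gene 1.0 ST arrays and deposited log2 values per probe set, made with RMA in Affymetrix Expression Console (version and genome build not given in the sources used here). Of 35556 probe sets, 21789 had 1 gene symbol, 1621 several and 12146 none in the platform annotation. Only those with 1 were named, and 21698 were updated by Entrez ID to RefSeq's GRCm38.p6 annotation. The brightest probe set stood for each gene, by its mean over the 12 arrays. This left 19938 genes, of which 13519 were above background. Several genes of the lists are not analysed here.

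The groups, taken from the labels, were compared with limma 3.58.1 in R 4.3.3 (lmFit, eBayes, two-sided, Benjamini-Hochberg), with no covariate, at the limits the study used with SAM, which was run as an alternative with 100 permutations. Other alternatives are given in the closing section. The code was tested on simulated data. The 9 genes and all lists were chosen with earlier results of these data known. Named beside the 9 are up to 4 called genes per list and direction with the smallest adjusted p. Also named are called markers, Slc3a2, Asns and the 2 most similar genes by Pearson r. Chosen after their values were seen were Ppat, Slc38a4, Ano6, Amigo2, Arid2, Scaf11, Nipbl, Ranbp3l, Cdkn2a, and markers and carriers that were not called. Promoter windows (7 of the 9 genes matched) come from RefSeq, GRCm38.p6. The interferon list was added after the design was fixed. Figures were drawn with matplotlib 3.10.9. The number of arrays limits the precision.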

Additional observations from a re-analysis of the deposited data

How the results depend on the processing

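The 9 differences were recomputed under 22 alternatives, 12 of which left out 1 array each. All kept their direction, and 195 of 198 values kept their side of the limits. The exceptions are Glul (-0.68), Slc1a4 (-0.44) and Glud1 (-0.43), which pass an adjusted p of 0.05 without a fold limit. At that limit 7 of the 9 genes were lower in place of 4, 3871 genes in place of 795 were higher and 3314 in place of 1009 lower. There the further carriers had 3 higher and 9 lower, the enzymes 4 and 6, the amidotransferases 6 and 3, and the genes of cystine use and glutathione 5 and 2. With 1 array left out, the difference was -3.83 to -3.72 for Slc1a3, -2.76 to -2.65 for Slc1a2, -1.71 to -1.49 for Slc1a1, -1.38 to -1.29 for Slc38a1 and 1.74 to 1.90 for Slc1a5, and each stayed called. For Slc7a11 it was 0.32 to 0.55 and never called. Glud1, under the fold limit throughout, did not keep its adjusted p from limma below 0.01. That p was up to 0.0132 with 1 array left out and 0.0142 with the replicate number as a block. The amidotransferases called lower were 0 to 1 with 1 array left out (0 without pEGFR-Hi replicates 4 or 5 or pEGFR-Lo replicates 2 or 5) and 0 with arrays centred on their medians, since Gfpt2 lies at the fold limit. The genes of cystine use and glutathione called higher were 1 to 2 (2 without pEGFR-Hi replicates 1 or 3 or pEGFR-Lo replicate 2). The astrocyte markers called lower were 1 in place of 2 without any of 8 single arrays, without pEGFR-Lo replicates 3 and 6 together, or with trend and robust in eBayes, as Gja1 was lost. Same-numbered mice did not deviate together (correlations -0.14 to 0.10, and 1 pEGFR-Hi mouse of 6 correlated best with its own number), and with the replicate number as a block 801 genes were called higher and 1008 lower, with 1 of the 9 genes higher and 4 lower as before (Slc1a3 -3.77, Slc1a5 1.83). Genes near background, such as Slc1a1 in pEGFR-Hi, have only a bound on their fold.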
